A study of Mus musculus with 4 samples.

Results

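The genes described here are 40 genes of skeletal muscle contraction and fiber type, taken by symbol from a fixed list out of the 22913 genes that were measured in mouse dermal white adipose tissue (dWAT), the fat layer under the hair follicles. All 40 were found. A 10-gene subset marks fast fibers (Myh1, Myh2, Myh4, Tnnt3, Tnni2, Tnnc2, Mylpf, Atp2a1, Pvalb and Mybpc2), and a 7-gene subset marks slow fibers (Myh7, Tnnt1, Tnni1, Tnnc1, Myl2, Myl3 and Casq2). The other 23 comprise the developmental myosins Myh3 and Myh8 and 21 further sarcomere, calcium handling and energy genes.

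RNA sequencing was carried out on 4 libraries of C57BL/6 mice: OTD (old mice, telogen, the resting phase of the hair cycle), YTD (young mice, telogen), OAD (old mice, anagen, the growth phase) and YAD (young mice, anagen). Old mice were 18 months and young mice 2 months of age by the samples' protocol text and the study's methods, and the sample titles say only old or young. The age field of the labels gives 18 months for YTD and 2 months for OAD, against those titles, and the titles were followed. Anagen was induced by depilation, the dWAT was microdissected after the subcutaneous fat and the panniculus carnosus had been removed, and per the study's methods each group drew on 20 mice. Each group is 1 library, so no difference below has a replicate check, an error or a p-value. Levels are FPKM as deposited, by name fragments scaled to gene length and to library size, and a change is a difference in log2(FPKM + 1). Summed FPKM was 1.25e+06 in OTD and 1.25e+06 in YTD against 814616 in OAD and 693715 in YAD. In the telogen libraries FPKM times coding length summed to more than such scaling allows. The deposited scale is therefore uncertain, above all between phases. The added 1 makes the changes of genes at low levels look smaller. A change of at least 1 in size is called past the threshold.

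Skeletal muscle contracts by sliding myosin thick filaments along actin thin filaments within sarcomeres. Calcium released through the ryanodine receptor binds troponin C and frees actin for myosin, and a calcium pump returns it to the sarcoplasmic reticulum, where calsequestrin stores it. Most parts of this machine exist as fast and slow isoforms encoded by separate genes, and the mixture found in a muscle is the usual measure of its fiber type. In mouse skin the panniculus carnosus, a thin sheet of striated muscle, lies under the dermal fat. White adipocytes do not build sarcomeres.

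The regions upstream of the 40 genes were examined first, because these genes mostly moved together. RefSeq promoter sequence on GRCm38.p6 was at hand for 32 of the 40. In the 250 bases before the start site, on both strands, CAGCTG, a site favored by the myogenic factor family of MyoD, occurred in 13 of the 32 (40.6%) and in 12.8% of 27025 promoters of all genes. The looser CANNTG, which includes every CAGCTG, occurred in 28 (87.5%) against 66.0% of all. The MEF2 box was present in 6 (18.8% against 3.01%), namely Casq2, Myh1, Myh4, Myh8, Pvalb and Ttn. The CArG box bound by serum response factor was present in Acta1, Myh4, Myl3 and Myom1 (12.5% against 1.40%), and TATAAA in 7 (21.9% against 13.0%). These are matches of letters and no measure of binding. Among genes with a sequence, CAGCTG was found in 3 of 8 fast and 1 of 7 slow genes, and CANNTG in 5 of 8 fast and 7 of 7 slow genes. The following 4 windows show the gene at the highest level (Acta1), the leading fast myosin (Myh4), the muscle creatine kinase (Ckm) and the slow troponin I (Tnni1). Each runs 5′ to 3′ toward the RefSeq start site, with matches to CAGCTG, the MEF2 box, the CArG box and TATAAA, on either strand and overlaps merged, in capitals. The Tnni1 window lies inside the span that the deposited data give this gene (chromosome 1, 135783065 to 135810989), so it is not upstream of that span.
Acta1, chr8:123894776-123895025, - strand: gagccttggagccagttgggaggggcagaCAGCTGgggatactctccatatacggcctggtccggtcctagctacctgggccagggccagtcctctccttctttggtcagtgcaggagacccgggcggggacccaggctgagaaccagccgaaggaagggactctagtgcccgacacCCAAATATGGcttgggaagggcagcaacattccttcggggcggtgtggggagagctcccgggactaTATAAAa
Myh4, chr11:67237562-67237811, + strand: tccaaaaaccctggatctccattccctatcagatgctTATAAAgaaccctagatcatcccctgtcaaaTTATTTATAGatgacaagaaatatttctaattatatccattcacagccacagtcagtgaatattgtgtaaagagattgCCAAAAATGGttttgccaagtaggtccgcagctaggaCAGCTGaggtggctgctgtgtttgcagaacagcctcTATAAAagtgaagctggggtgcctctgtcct
Ckm, chr7:19410844-19411093, + strand: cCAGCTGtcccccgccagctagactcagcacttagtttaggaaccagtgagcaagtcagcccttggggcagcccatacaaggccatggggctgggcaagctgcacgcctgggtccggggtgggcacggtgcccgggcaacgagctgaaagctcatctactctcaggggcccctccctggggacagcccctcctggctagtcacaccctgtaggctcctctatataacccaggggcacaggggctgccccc
Tnni1, chr1:135799171-135799420, + strand: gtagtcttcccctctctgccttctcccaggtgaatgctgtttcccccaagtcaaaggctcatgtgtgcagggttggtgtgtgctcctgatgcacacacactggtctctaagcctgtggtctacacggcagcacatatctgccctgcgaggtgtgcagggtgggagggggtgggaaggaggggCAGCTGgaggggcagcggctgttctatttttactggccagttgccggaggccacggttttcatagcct
Each of the 4 windows holds a single CAGCTG match, so all 4 come from the 13 of 32 genes that have one. Tnni1 is the 1 of 7 slow genes with it. The windows of Acta1 and Myh4 also have a CArG box and, close to the start, a TATAAA, and Myh4 alone of the 4 has a MEF2 box, which overlaps one of its 3 TATAAA matches. The Ckm and Tnni1 windows have none of these other motifs.

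Transcripts of the 40 genes made up 7.19% of all summed FPKM in OTD and 11.4% in YTD against 2.57% in OAD and 2.32% in YAD. The telogen libraries were the high ones and the anagen libraries the low ones, with YTD above OTD. Among the 50 genes at the highest FPKM were 12 of the members in OTD and 13 in YTD, but 1 in OAD and 1 in YAD. Acta1 (ENSMUSG00000031972, GRCm38 chromosome 8, 123891767 to 123894736), the skeletal muscle alpha-actin of the thin filament, stood at 17991 FPKM in OTD and 27442 in YTD against 4106 in OAD and 2919 in YAD. It ranked 12 of all genes in OTD and 10 in YTD against 23 in OAD and 25 in YAD. At the other end Myh7, the slow myosin heavy chain, stayed at 0.184, 0.228, 0.334 and 0.227 in the same order. Every library showed an FPKM of 1 or more for 35 of the 40, and Myh7 was the single member below 1 in all. Mitochondrially encoded genes held 52.7% of summed FPKM in OTD and 44.7% in YTD against 18.3% in OAD and 14.4% in YAD, so they moved with the hair cycle phase as the muscle genes did, and the part of this in the values below was tested only by rescaling.

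**Figure D1:**
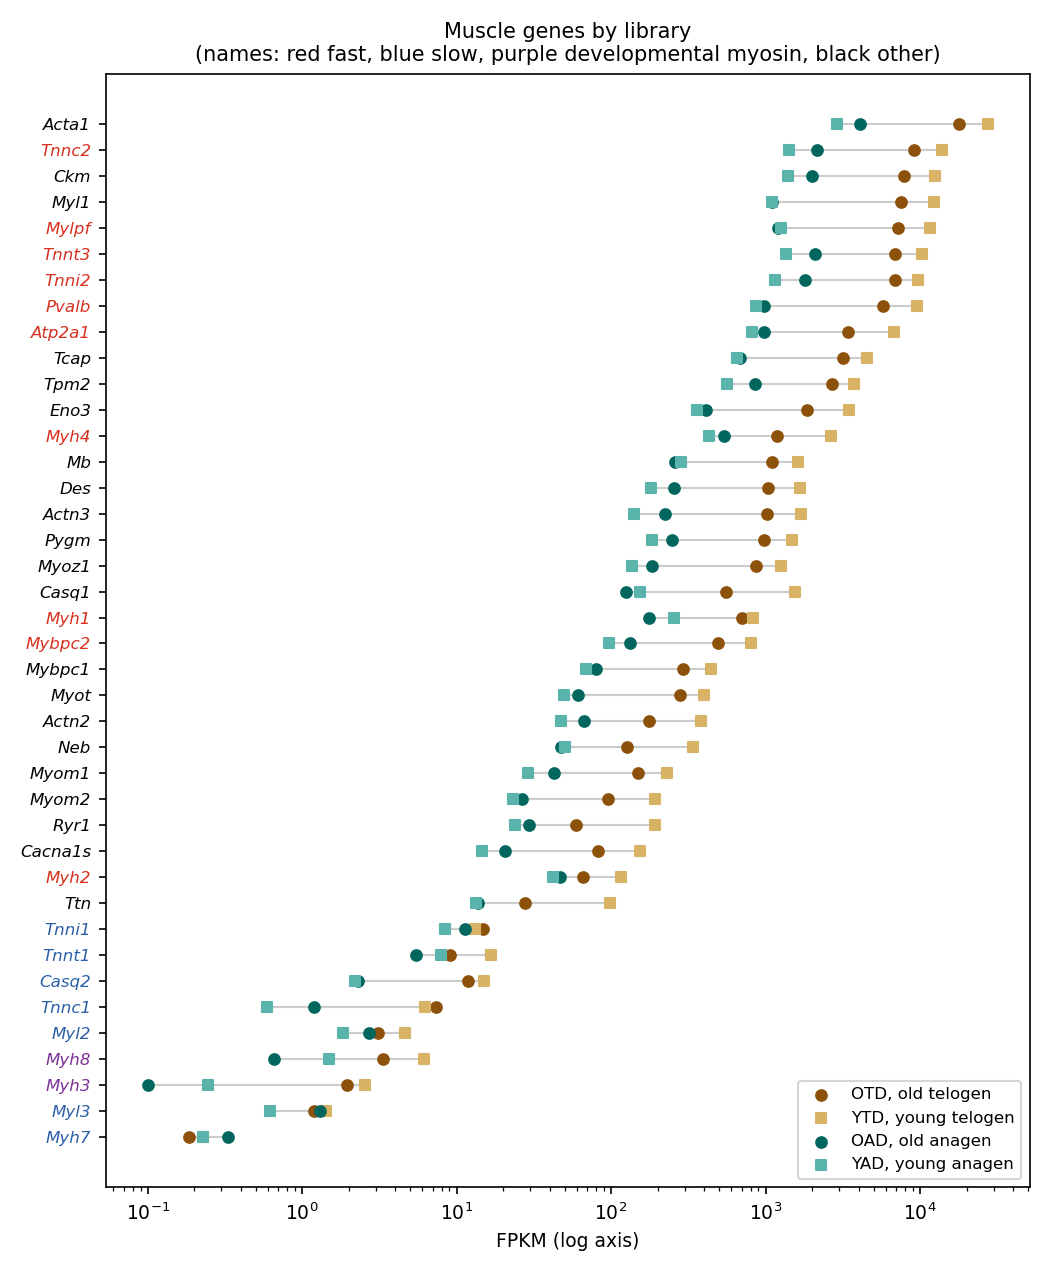
FPKM of the 40 muscle genes (log axis) in each of the 4 libraries, with genes ordered by mean FPKM and a gray line from the lowest to the highest library. For most genes both telogen points lie far to the right of both anagen points, and the slow genes and developmental myosins fill the bottom of the plot, where Myh7 stays below 1 FPKM in all 4 libraries.

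Fast genes were far above slow genes in every library. The 10 fast genes summed to 41826 FPKM in OTD and 66321 in YTD against 10063 in OAD and 7701 in YAD. The 7 slow genes summed to 47.7, 57.5, 24.6 and 21.8. On the log2(FPKM + 1) scale the mean fast level exceeded the mean slow level by 8.54 in OTD and 9.04 in YTD against 7.41 in OAD and 7.35 in YAD. The gap was thus wider in both telogen libraries than in both anagen libraries, and that order held under each of the 6 other ways of computing it.

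Myosin heavy chain, the motor of the thick filament, is the classical fiber type gene. Myh4 (ENSMUSG00000057003, chromosome 11, 67238029 to 67260446), the myosin of the fastest IIb fibers, stood at 1192 FPKM in OTD and 2661 in YTD against 536 in OAD and 429 in YAD. Myh1, the IIx myosin, was at 699, 828, 175 and 257 in the same order. Myh2, the IIa myosin, was at 65.6, 115, 46.9 and 41.9. All 3 were highest in YTD and second highest in OTD. Within the 4 adult myosin genes, Myh4 made up 60.9% of the FPKM in OTD and 73.8% in YTD against 70.7% in OAD and 58.9% in YAD. The Myh1 share, largely fixed by that of Myh4, was 35.7% in OTD and 23.0% in YTD against 23.1% in OAD and 35.3% in YAD. Old telogen and young anagen therefore had nearly the same Myh4 to Myh1 mixture, as did young telogen and old anagen, so the mixture followed neither age nor phase alone. Myh2 took 3.36% in OTD and 3.20% in YTD against 6.18% in OAD and 5.75% in YAD, so its share was higher in both anagen libraries. Myh7 took no more than 0.0440% in any library.

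**Figure D2:**
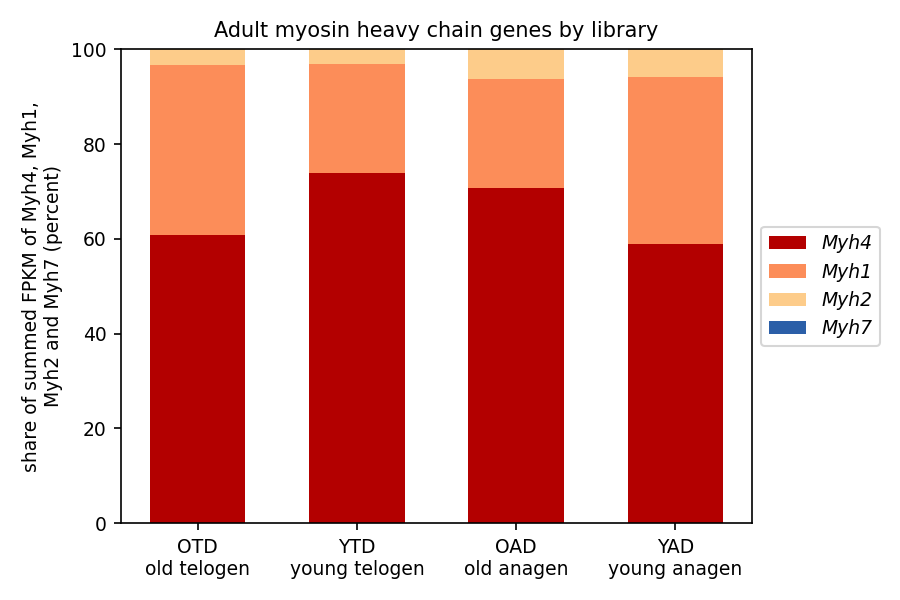
Share of the summed FPKM of the 4 adult myosin heavy chain genes held by each of them (percent, stacked bars) in the 4 libraries. Myh4 holds between 58.9% and 73.8%, Myh1 most of the rest, and Myh7 at most 0.0440%, too thin a band to see.

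These myosin genes lie in 1 cluster on chromosome 11 and are near copies of each other, which bears on how far their values can be separated. The coding sequence of Myh4 was 90.2% identical to that of Myh1, 88.2% to Myh2, 87.9% to Myh8, 80.3% to Myh3 and 77.4% to Myh7, which lies on chromosome 14. Of all stretches of 50 bases, 27.9% in Myh1, 28.1% in Myh2, 19.5% in Myh4 and 22.7% in Myh8 also occur in a transcript of another gene, as do 23.8% in Myh7, there all shared with the cardiac Myh6. The 60-base window below, within exon 21 of Myh4 (GRCm38 chr11:67250888-67250947, + strand), is the one in which Myh1 departs most from Myh4. Capitals mark bases that differ from Myh4, and it shows that reads can tell these genes apart in such places.
Myh4: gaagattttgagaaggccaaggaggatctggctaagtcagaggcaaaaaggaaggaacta
Myh1: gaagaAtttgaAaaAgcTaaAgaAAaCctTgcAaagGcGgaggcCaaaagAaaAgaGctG
Myh2: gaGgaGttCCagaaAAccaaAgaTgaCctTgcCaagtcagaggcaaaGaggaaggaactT
Myh7: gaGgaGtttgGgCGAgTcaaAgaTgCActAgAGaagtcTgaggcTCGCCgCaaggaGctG
Myh1 differs here at 17 of 60 bases, Myh2 at 13 and Myh7 at 23. How the authors' counting divided reads from the shared stretches was not given in the sources used here, so the myosin shares are uncertain to that extent. For 32 of the 40 genes fewer than 1% of such stretches are shared. Myl1 is the highest, at 46.7%, all with the pseudogene Mylf-ps.

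Myosin light chains steady and tune the motor. The fast regulatory chain Mylpf was at 7193 FPKM in OTD and 11667 in YTD against 1197 in OAD and 1260 in YAD. Its slow partner Myl2 was at 3.08, 4.61, 2.70 and 1.85. The essential chain Myl1 was at 7523, 12230, 1096 and 1104, while the slow Myl3 was at 1.19, 1.44, 1.31 and 0.624. Mylpf and Myl1 were several-fold higher in telogen, whereas Myl2 and Myl3 were 2.49 and 2.30 times as high in YTD as in YAD and differed less between OTD and OAD, where Myl3 was higher in OAD.

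The troponin complex is the calcium switch of the thin filament. Troponin C binds calcium, and its fast form Tnnc2 was at 9184 FPKM in OTD and 13946 in YTD against 2139 in OAD and 1417 in YAD. The inhibitory subunit Tnni2 was at 6911, 9653, 1796 and 1157. Tnnt3, which ties the complex to tropomyosin, was at 6882, 10337, 2080 and 1356. All 3 had the order YTD, OTD, OAD, YAD. Among the slow forms Tnni1 was at 14.9, 13.1, 11.3 and 8.46, Tnnt1 at 9.09, 16.8, 5.48 and 7.88, and Tnnc1, shared by slow muscle and heart, at 7.37, 6.24, 1.19 and 0.593. Tnni1 and Tnnc1 were the only members with a higher value in OTD than in YTD.

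Calcium handling showed the same order of isoforms. The fast calcium pump Atp2a1 was at 3434 FPKM in OTD and 6739 in YTD against 978 in OAD and 823 in YAD, and the calcium buffer of fast fibers, Pvalb, at 5773, 9574, 980 and 863. The calsequestrins were at 556, 1547, 124 and 154 for Casq1, the main form of fast fibers, and 11.9, 15.1, 2.29 and 2.21 for Casq2, the slow and cardiac form. Ryr1, the calcium release channel, was at 59.1, 192, 29.3 and 23.9, and Cacna1s, the voltage sensor that opens it, at 82.6, 153, 20.5 and 14.7. All 6 were highest in YTD.

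Set as pairs, the fast gene was above the slow gene in all 11 pairs and all 4 libraries, and in 9 of the 11 both telogen ratios were above both anagen ratios. The Tnni2 to Tnni1 ratio was 465 in OTD and 738 in YTD against 159 in OAD and 137 in YAD, and the Tnnt3 to Tnnt1 ratio was 757, 615, 380 and 172. The exceptions were troponin C and calsequestrin. Tnnc2 over Tnnc1 was 1246 in OTD and 2233 in YTD against 1803 in OAD and 2392 in YAD, and Casq1 over Casq2 was 46.7, 102.5, 54.4 and 69.7, with OTD the lowest in both. The calcium pump pair spread the most. Atp2a1 over Atp2a2 was 128 in OTD and 246 in YTD against 14.4 in OAD and 11.4 in YAD. Atp2a2, also the pump of non-muscle cells, was higher in anagen, at 26.9 in OTD and 27.4 in YTD against 68.1 in OAD and 71.9 in YAD. The smallest ratios belonged to myosin-binding protein C, a brace of the thick filament, with Mybpc2 over Mybpc1 between 1.40 and 1.81. That pair counts among the 9 by a very small margin, at 1.669 in OTD and 1.664 in OAD. Mybpc1 carries the slow name yet stood at 294 in OTD and 444 in YTD against 79.7 in OAD and 69.2 in YAD, far above each gene of the slow subset.

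**Figure D3:**
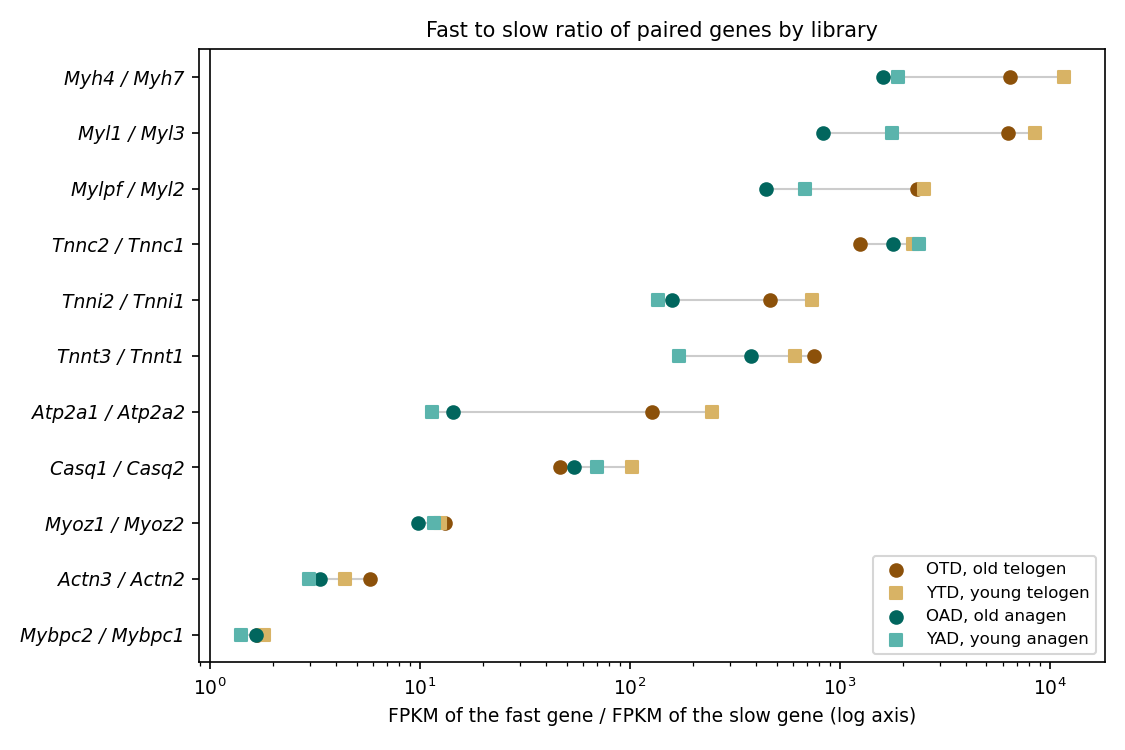
Ratio of the FPKM of a fast gene to that of its slow partner (log axis) for 11 pairs in the 4 libraries, ordered by the ratio in YTD. Every point lies to the right of 1. The telogen points lie to the right of the anagen points in all pairs except Tnnc2 / Tnnc1 and Casq1 / Casq2. For Mybpc2 / Mybpc1 the OTD and OAD points nearly coincide.

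The comparison of anagen with telogen in young mice gave the largest differences. All 40 genes were lower in YAD than in YTD, and 36 were past the threshold, where 16.7% of the 17622 genes above 0 were lower by as much and 16.1% were higher by as much. The median change was -2.95, against 0.02 for all genes. The members not past the threshold were all slow genes: Myh7, Tnni1, Myl3 and Myl2 at -0.00, -0.57, -0.59 and -0.98. Tnnt1 lay just past it. The largest change was that of Actn3, the fast alpha-actinin of the Z disc, at -3.57. It stood at 1688 FPKM in YTD and 141 in YAD. With every library rescaled to the same sum, as TPM does, the median was -2.12 while that of all genes moved up by 0.44, and 2 slow genes, Myh7 and Tnni1, turned to a higher value in YAD. Past the threshold were then 32 members, all lower, while the split of all genes past it moved from 2829 higher and 2938 lower to 5891 and 1274.

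In old mice 38 of the 40 were lower in OAD than in OTD. The exceptions were Myh7 and Myl3, with changes of 0.17 and 0.08, and Myl3 turned to a lower value when the mitochondrially encoded genes were left out of the scaling. Past the threshold were 32, all lower, against 15.6% of the 17712 genes above 0 that were lower by as much and 16.1% that were higher. The median change was -1.91, against 0.01 for all genes, and Myl1 had the largest, at -2.78. Just inside and just outside the threshold were Myh4 at -1.15 and Ryr1 at -0.99. Under TPM scaling the median was -1.30, with the median of all genes up by 0.30, and Myh2, Tnni1 and Myl2 turned to higher values in OAD. There 29 members were past the threshold, all lower, and the split of all genes past it moved from 2854 higher and 2759 lower to 4923 and 1502.

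Fast genes differed more between phases than slow genes. The mean change of the fast genes was -2.78 and that of the slow genes -1.09 in young mice, and -1.82 against -0.69 in old mice. As plain FPKM ratios, free of the added 1, the median fast gene was 8.23 times as high in YTD as in YAD (range 2.75 to 11.1), and the median slow gene 2.30 times (range 1.01 to 10.5). From OTD to OAD the medians were 3.78 times (1.40 to 6.01) and 1.31 times (0.552 to 6.21). The ranges overlapped. Tnnc1, 10.5 times as high in YTD as in YAD, and Casq2, 6.82 times, lay within the fast range, and Myh2 was the fast gene with the smallest ratio in both ages. Since the slow genes were between 0.184 and 16.8 FPKM in all libraries, their ratios rest on far fewer fragments.

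**Figure D4:**
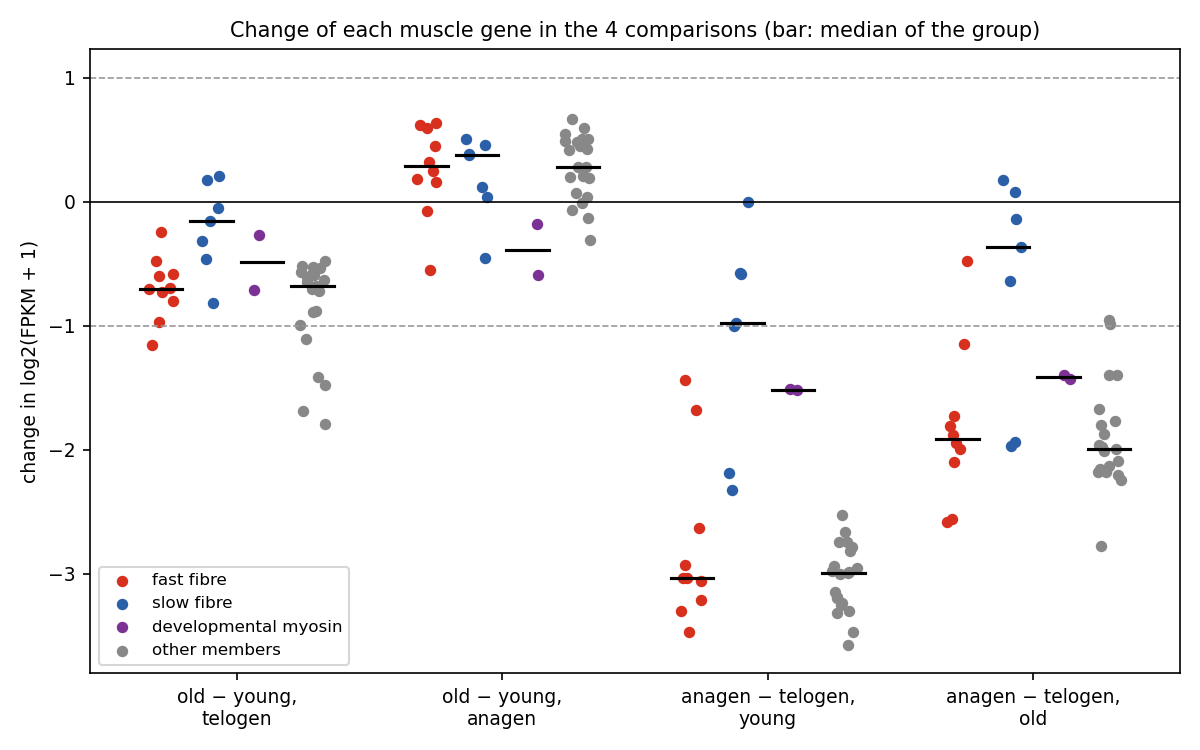
Change in log2(FPKM + 1) of each of the 40 genes in the 4 comparisons, colored by fast, slow, developmental myosin and other members, with a bar at the median of each group and dashed lines at the threshold of 1. In the 2 comparisons of phase most red and gray points lie below -1 and many blue points lie near or above it, and in the comparison of ages in anagen all points lie inside the dashed lines.

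The other structural members followed the fast genes. The 3 thin filament genes (Acta1, Neb and Tpm2) had changes from -2.74 to -3.23 between phases in young mice. Among them the giant ruler protein gene Neb stood at 127 FPKM in OTD and 341 in YTD against 47.6 in OAD and 49.99 in YAD and the beta-tropomyosin gene Tpm2 at 2703, 3765, 850 and 562. The 6 Z disc and filament anchoring genes (Actn2, Actn3, Myoz1, Myot, Des and Tcap) ranged from 177 to 3155 FPKM across genes in OTD, 384 to 4571 in YTD, 60.7 to 683 in OAD and 47.7 to 650 in YAD, and all 6 were past the threshold in both ages. Des, the desmin intermediate filament that links Z discs, was at 1039, 1666, 257 and 181. Of the M band genes, which cross-link thick filaments, Myom1 was at 149, 231, 43.0 and 29.2 and Myom2 at 95.7, 192, 26.7 and 23.1. Ttn, the titin spring that spans the sarcomere from Z disc to M band, was at 27.7, 98.2, 13.8 and 13.4. The energy genes had the same order of phases. Ckm, which buffers ATP with creatine phosphate, was at 7920, 12413, 1988 and 1400, the muscle enolase Eno3 at 1868, 3460, 414 and 363, the glycogen phosphorylase Pygm at 981, 1476, 249 and 185, and the oxygen store Mb, myoglobin, at 1102, 1634, 258 and 284. In all of these genes the lower telogen value exceeded the higher anagen value.

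Myh3 and Myh8, the embryonic and neonatal myosins that reappear in regenerating fibers, were at low levels throughout. Myh3 was at 1.96 FPKM in OTD and 2.57 in YTD against 0.1002 in OAD and 0.246 in YAD, and Myh8 at 3.36, 6.13, 0.656 and 1.4996. Together they made up between 0.0996% and 0.271% of the 6 myosin heavy chain genes. Both were lower in anagen by more than 1 in young and in old mice.

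Between ages in telogen the muscle genes were lower in old mice. Of the 40, 38 were lower in OTD than in YTD, with a median change of -0.64 against -0.03 for all 17230 genes above 0. Lower by at least 1 were 6 genes, namely Ttn, Ryr1, Casq1, Neb, Myh4 and Actn2 at -1.79, -1.68, -1.47, -1.42, -1.16 and -1.11, where 1.93% of all genes were lower by as much. None was higher by at least 1, against 1.67% of all genes, and Tnni1 and Tnnc1 were higher by 0.17 and 0.21. Myom2, at -0.996, lay just outside. All 10 fast genes were lower, by a mean of -0.70 in log2(FPKM + 1), from -0.24 for Myh1 to -1.16 for Myh4, and 5 of 7 slow genes were lower, with a mean of -0.20. The FPKM ratio of YTD to OTD was 1.63 for the median fast gene and 1.24 for the median slow gene. Directions were the same under every scaling tried, with 4 to 8 genes past the threshold. Among all genes past it 287 were higher and 333 lower, against 490 and 186 with mitochondrially encoded genes left out of the scaling and 210 and 370 with the members left out.

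Longer muscle genes tended to differ more between ages in telogen, with exceptions. Members with a coding length over 10000 bases (Ttn, Neb and Ryr1) had a median change of -1.68, against -0.71 for 11 members of 3000 to 10000 bases, -0.68 for 11 of 1000 to 3000 and -0.53 for 15 shorter ones. Across the 40 genes the change and the logarithm of coding length had a Pearson r of -0.57 and a Spearman rho of -0.42, given as a description since all points come from the same 2 libraries. In 63 muscle genes outside the 40 the medians in the same order of classes, longest first, were -1.83, -0.91, -0.81 and -0.56. In 6755 other genes that reached an FPKM of 5 in every library the corresponding medians were -0.44, -0.22, -0.11 and -0.13, with an r of -0.05. In anagen the members' medians from the longest class to the shortest were 0.04, 0.20, 0.43 and 0.38, with an r of -0.22. Some shorter genes also differed by more than 1 in telogen. Casq1, with 1218 coding bases, and Actn2, with 2685, changed by -1.47 and -1.11. Outside the 40, Mybph, with 1452, and Jph2, with 2091, both changed by -1.56. Myh1, with 5829, changed by only -0.24. The study's methods set a minimum RNA integrity score, and whether RNA quality differed between the libraries was not tested.

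**Figure D5:**
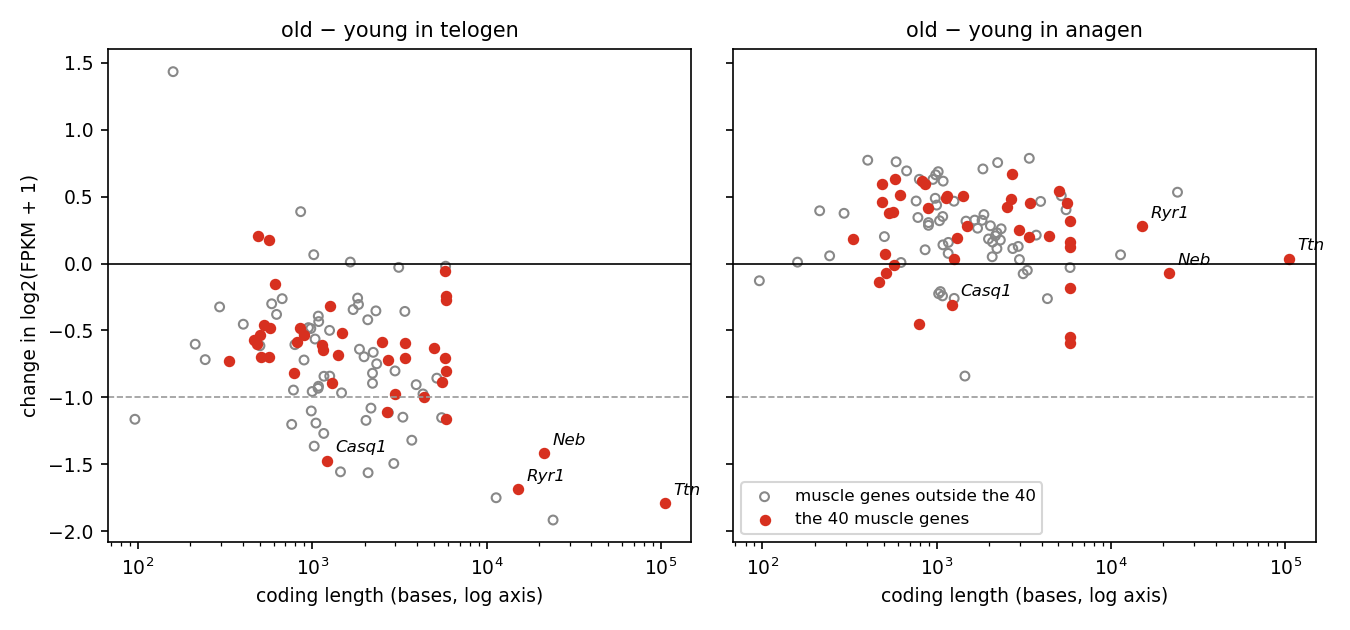
Change in log2(FPKM + 1) between old and young mice in telogen (left) and anagen (right) against coding length (bases, log axis) for the 40 genes (red) and 63 muscle genes outside them (gray circles), with a dashed line at -1. On the left the 3 longest red points, Ryr1, Neb and Ttn, lie between -1.42 and -1.79, and on the right they lie between -0.07 and 0.28.

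Between ages in anagen the differences were smaller and no member was past the threshold in either direction, where 1.18% of the 17613 genes above 0 were. As deposited, 31 of the 40 were higher in OAD than in YAD with a median change of 0.28 against 0.00 for all genes, but under TPM scaling the split was 23 higher to 17 lower, the members' median 0.07 and the median of all genes -0.16. The highest changes were those of Actn3, at 0.67, and Tnni2, at 0.63. The lowest were those of Myh8, Myh1 and Tnnt1 at -0.59, -0.55 and -0.45. These 5 muscle genes kept their direction under TPM scaling, whereas Myh2, Pvalb, Casq2, Ttn, Mybpc1, Tcap, Myom2 and Eno3 turned from higher to lower. Among all genes past the threshold 128 were higher and 80 lower as deposited, and 104 and 175 under TPM scaling. Fast and slow genes had similar means, 0.26 and 0.20, and the sign of the difference between them changed with the pseudocount and under TPM scaling. In each comparison of ages or phases, fewer muscle fibers and less muscle RNA per fiber cannot be told apart in these bulk libraries.

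Muscle genes outside the 40 had values like theirs. Of 63 such genes found, 59 were lower by at least 1 in YAD than in YTD, 58 in OAD than in OTD, 17 in OTD than in YTD and none in OAD than in YAD. Of all genes above 0, 16.7% were lower by as much in YAD than in YTD, 15.6% in OAD than in OTD and 1.93% in OTD than in YTD. Between ages in anagen 1.18% were past the threshold in either direction. Among 22 further sarcomere genes the highest was the alpha-tropomyosin gene Tpm1, at 3375 FPKM in OTD and 4726 in YTD against 1027 in OAD and 732 in YAD. Among 15 further genes of excitation and calcium release, Jph2, which holds the T-tubule against the reticulum, was at 88.7, 264, 29.3 and 26.1. The glycolytic aldolase Aldoa was at 9046, 12787, 2771 and 2006. Among 8 muscle isoforms of mitochondrial and fuel proteins, Cox8b, a cytochrome oxidase subunit of heart and skeletal muscle, was at 2234, 3392, 425 and 323. Slow fiber genes outside the subset were mixed. Csrp3, a Z disc protein, was at 320, 394, 71.9 and 42.0 and Pln, the phospholamban inhibitor of the slow calcium pump, at 11.4, 3.58, 0.781 and 0.768, which made Pln the 1 outside muscle gene higher in OTD by at least 1. Tpm3, the slow tropomyosin gene that many cell types use, was at 53.7, 40.8, 72.3 and 67.2 and did not follow the module.

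Genes of muscle precursors and of the nerve contact were present with the fiber genes and were lower in anagen too. Of 12 satellite cell and myogenic factor genes, 9 were lower by at least 1 in YAD than in YTD, 8 in OAD than in OTD and 1 in OTD than in YTD. The shares of all genes lower by as much were 16.7%, 15.6% and 1.93% in the same order. Myog, the factor of differentiating myoblasts, was at 26.1 FPKM in OTD and 27.1 in YTD against 1.43 in OAD and 1.26 in YAD, and Myf6, kept on in mature fibers, at 64.7, 87.4, 10.9 and 9.18. Mymk, a fusogen of myoblasts, was at 7.22, 7.84, 0 and 0.331, listed at 0 in OAD. The satellite cell marker Pax7 was at 0.486, 0.840, 0.233 and 0.220, lower in anagen in both ages but from few fragments. Of 11 neuromuscular junction genes, 10 were lower by at least 1 in YAD and 9 in OAD than in telogen of the same age, against 16.7% and 15.6% of all genes. Chrna1, the alpha subunit of the acetylcholine receptor, was at 9.19, 12.8, 0.466 and 0.808. The fetal receptor subunit Chrng was at 2.78, 4.51, 0.0987 and 0.0752 and the adult subunit Chrne at 4.29, 3.35, 0.792 and 0.942. Lrp4, which epithelial cells also express, was higher in anagen, at 2.48, 3.80, 7.04 and 6.02. Of 10 genes of atrophy and denervation, the ubiquitin ligase Trim63 was at 104, 133, 23.8 and 18.4 and Runx1, also a hair follicle gene, at 6.18, 6.57, 18.8 and 16.7. That list also holds genes of the groups above, Myh8, Myog and Chrng among them. None of the 10 was past the threshold between ages in either phase. Of all genes, 1.93% were lower and 1.67% higher by as much in telogen, and 1.18% were past it in anagen, so none in a list this short says little.

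The defining heart muscle genes were at or near 0: of 10 cardiac markers, Myl7 was listed at 0 in all 4 libraries and Myh6 was at no more than 0.00681 FPKM. At least 1 FPKM was reached by 3 of the 10 in each telogen library, 4 in OAD and 5 in YAD. The 3 in telogen are genes that immature skeletal muscle also uses. Myl4, an atrial and embryonic light chain, was at 53.9 in OTD and 65.3 in YTD against 4.21 in OAD and 3.68 in YAD, and Tnnt2, the cardiac troponin T, at 10.2, 9.87, 3.53 and 4.02. Actc1, the cardiac actin that fetal and regenerating skeletal muscle also use, was at 36.8 in OTD and 149 in YTD against 3.15 in OAD and 11.7 in YAD, lower in old than in young mice in both phases. Smooth muscle genes did not follow the module between ages in telogen: 8 of 9 were higher in OTD than in YTD. By at least 1 were 4 of them higher, where 1.67% of all genes were higher by as much, and Tagln was at 244, 115, 63.9 and 66.4.

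Markers of other cells moved with the phases as well. The 12 adipocyte markers summed to 13238 FPKM in OTD and 12263 in YTD against 3664 in OAD and 2655 in YAD, and none was at 0. The 40 muscle genes together were 8.80 times as high in YTD as in YAD and 4.30 times as high in OTD as in OAD, and the adipocyte markers 4.62 and 3.61 times. The summed FPKM of the 40 over that of the adipocyte markers, a ratio chosen after the values were seen, was 6.79 in OTD and 11.6 in YTD against 5.71 in OAD and 6.07 in YAD. Car3, which skeletal muscle also expresses, was the largest part of the adipocyte sum in telogen, at 5322 in OTD and 5714 in YTD against 909 in OAD and 731 in YAD. Without it the ratio was 11.4, 21.7, 7.59 and 8.38, and the remaining 11 adipocyte markers were 3.40 times as high in YTD as in YAD and 2.87 times as high in OTD as in OAD. The same ratio was 204, 515, 195.3 and 197 against 8 endothelial markers, 57.5, 126, 94.6 and 37.3 against 8 fibroblast markers, 157, 446, 105 and 83.3 against 9 smooth muscle markers and 120, 320, 231 and 143 against 8 macrophage markers. YTD was the highest against each of these lists, and the order of the other libraries depended on the list. Against the hair shaft keratins OTD was the highest, at 2825 in OTD and 1494 in YTD against 1.88 in OAD and 1.40 in YAD. Against the keratinocyte markers the ratio was 1583, 1636, 14.7 and 16.6. The 8 hair shaft keratins found summed to 31.8 in OTD and 95.02 in YTD against 11142 in OAD and 11558 in YAD, and the 8 keratinocyte markers to 56.8 and 86.8 against 1418 and 972. How much of the phase difference in the muscle genes came with these shifts in tissue makeup was not tested.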

How the data were processed

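Total RNA of dWAT was sequenced in 4 libraries, 1 per group, on an Illumina HiSeq instrument. The submitters' processing notes name bcl2fastq, TopHat2 and the GRCm38 build, and the counting tool and versions were not given in the sources used here. The authors deposited 1 table per library with gene ID, position, length and FPKM, and no counts. Of 22913 gene IDs, 21750 matched a symbol. Listed lengths are coding lengths: 97.0% are multiples of 3, and for all 40 members they equal an annotated coding sequence. The tables give no depth. From steps in low FPKM values it was put at roughly 17300000 to 24700000 fragments per library. By this estimate all 40 members were above 3 fragments in every library. Among genes named outside the members, Pln and Chrng in YAD and Mymk in OAD were below 3 fragments, as were Myl7 and Myh6 in all libraries. No interval was drawn from the estimate.

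Changes are differences in log2(FPKM + 1) over genes above 0 in a library of the comparison. With 1 library per group no test was run, and a gene was called at a change of at least 1. The 4 comparisons share libraries, so values are set side by side and not correlated. Alternatives were pseudocounts of 0.1 and 0.01, a filter at an FPKM of 1, TPM, the median of ratios, leaving mitochondrially encoded genes or the members out of the scaling, and a threshold of 1.5. The scripts were tested on simulated data.

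The members and gene lists were chosen with earlier results of these data known. All members are named. From other lists the genes at the highest mean FPKM or with the largest changes past the threshold were eligible for naming. A few further genes (Pax7, Chrne, Chrng, Myh6, Myl7, Tnni3, Tpm3) were chosen after their values were seen. Mrln and Krt85 of these lists were not found. Promoters are those of RefSeq, coding sequences those of GENCODE vM21. Python 3.11.15, numpy 2.4.6, pandas 2.3.3, matplotlib 3.10.9 and, to align coding sequences, Biopython 1.88 were used.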

Additional observations from a re-analysis of the deposited data

Results flagged for a closer look

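The difference between old and young mice had opposite signs in the 2 phases for most of the 40 muscle genes. The median change in log2(FPKM + 1) was lower in telogen than in anagen by a difference of -0.92. Of the 40, 29 were lower in old than in young mice in telogen and higher in anagen, 9 were lower in both (Myh1, Mylpf, Tnnt1, Myh3, Myh8, Myl1, Neb, Casq1 and Mb), and 2 were higher in both (Tnni1 and Tnnc1). With 1 library per group the difference was not tested, and under TPM scaling 17 rather than 9 of the 40 were lower in old mice in anagen.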

How the results depend on the processing

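No paired analysis was possible because each group has 1 library and the labels carry no replicate numbers, and for the same reason no library could be left out. No median over the 40 genes changed direction under any alternative run. With a threshold of 1.5, 2 members were lower between ages in telogen. In anagen, 1 member was past the threshold between ages with a pseudocount of 0.1 and 3 with 0.01. Under TPM scaling the median change between phases was -2.12 in young and -1.30 in old mice, and with the members left out of the scaling it was -2.26 in young mice. The fast minus slow level moved to 8.01 in OAD and 8.15 in YAD with a pseudocount of 0.1, to 9.17 in OTD, 8.11 in OAD and 8.29 in YAD with 0.01, to 10.12 in YTD, 8.22 in OAD and 8.21 in YAD with list medians, to 9.78 in OTD and 10.17 in YTD against 8.67 in OAD and 8.46 in YAD as a ratio of summed FPKM, and to 9.22 in OTD and 9.68 in YTD without the myosin heavy chain genes. Without mitochondrially encoded genes the members held, as a share of the sum, 15.2% in OTD and 20.6% in YTD against 3.14% in OAD and 2.72% in YAD. These moves follow from how each alternative is built, and their other causes were not tested. Of 160 changes of single members, 67 differed by over 1.5 times in fold under TPM scaling, 33 with the members left out, 9 with a pseudocount of 0.01, 6 with 0.1 and none under the median of ratios or without mitochondrially encoded genes. The direction of a single member turned in 13 of the 160 under TPM scaling and 13 with the members left out, in 6 without mitochondrially encoded genes, in 2 under the median of ratios and in none with other pseudocounts. Leaving Car3 out of the adipocyte markers was chosen after seeing the data. Among all genes, those past the threshold rose from 620 to 2144 and 3445 in telogen, from 208 to 1109 and 2435 in anagen, from 5767 to 8468 and 9761 between phases in young mice and from 5613 to 8312 and 9616 in old mice with pseudocounts of 0.1 and 0.01.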
